A study of Mus musculus with 32 samples.

Results

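Of the genes that mouse embryos transcribe at the 2-cell stage, 10 that are linked to the endogenous retrovirus MERVL and are not Zscan4 genes were followed in single late 2-cell embryos. The 10 genes (Zfp352, Tdpoz3, Tdpoz4, Tcstv1, Tcstv3, Usp17lc, Usp17le, Tmem92, Arg2 and Sp110) were taken by gene symbol from a table of 34223 genes, and all 10 were present. Single wild-type embryos were sequenced 28 h after in vitro fertilization. All had received mRNA for H3.3-GFP, the histone variant H3.3 joined to a green fluorescent protein, and those with GFP signal were kept. In 16 embryos (Val_LNA) the injected mix also held an antisense oligonucleotide with locked nucleic acid (LNA) bases against tRFValCAC, a piece of valine tRNA. For the remaining 16 (Ctrl_LNA) the mix held a scrambled LNA oligonucleotide. There was no group of uninjected embryos among the samples used here, so both groups share the injection, the GFP fusion and an LNA. Matings and injection days are not in the labels. The p-values set the difference between the groups against the spread among these embryos, and both may be partly technical. A difference between the groups in matings or injection days could not be told apart from that of the LNA.

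MERVL is a retrovirus-like repeat whose long terminal repeats act as promoters in the 2-cell embryo, when the embryonic genome is first strongly transcribed. Genes that lie next to such repeats, or that respond to the same transcription factors, are expressed in a short burst that is known as the 2-cell program. The transcription factor Dux and the Zscan4 proteins belong to the same program, and several chromatin factors are known to hold it down in embryonic stem cells. Whether a transcript of these 10 genes started in a MERVL repeat was not analysed here, because the table gives 1 value per gene.

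Promoter windows from RefSeq (GRCm38.p6, 250 bases before to 50 after a start) were found for 4 of the 10 genes, Zfp352, Sp110, Tdpoz4 and Usp17lc. They were searched on both strands for the letters GGATTA, which read TAATCC on the opposite strand, the type of site bound by OTX and OBOX homeodomain proteins, a family that includes OBOX factors of the early embryo. They were also searched for GATTNAATC, a core of the type bound by DUX, and the 2 motifs may share bases. Windows of 3 genes are printed because they hold many, few and no copies of the first motif. They are written 5′ to 3′ on the strand of the gene, with each copy of that motif in capitals. The Zfp352 window is chr4:90218570-90218869 on the plus strand. The Sp110 window is that of the upstream of its 2 RefSeq starts, at chr1:85603842-85604141 on the minus strand. The Usp17lc window is chr7:103416446-103416745 on the plus strand. It lies inside the annotated gene, which begins at 103415072, and does not cover that start.

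Zfp352: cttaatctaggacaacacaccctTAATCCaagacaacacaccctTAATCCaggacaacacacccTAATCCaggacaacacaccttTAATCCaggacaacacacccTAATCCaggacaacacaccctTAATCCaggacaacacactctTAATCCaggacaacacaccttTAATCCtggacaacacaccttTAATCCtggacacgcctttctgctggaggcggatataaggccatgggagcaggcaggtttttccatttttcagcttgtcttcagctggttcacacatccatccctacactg

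Sp110: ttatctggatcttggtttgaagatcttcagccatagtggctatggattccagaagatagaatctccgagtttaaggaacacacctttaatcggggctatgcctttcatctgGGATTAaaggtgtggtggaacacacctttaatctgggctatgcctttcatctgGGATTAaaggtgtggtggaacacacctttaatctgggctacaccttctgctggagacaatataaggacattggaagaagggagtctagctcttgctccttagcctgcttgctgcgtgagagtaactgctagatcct

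Usp17lc: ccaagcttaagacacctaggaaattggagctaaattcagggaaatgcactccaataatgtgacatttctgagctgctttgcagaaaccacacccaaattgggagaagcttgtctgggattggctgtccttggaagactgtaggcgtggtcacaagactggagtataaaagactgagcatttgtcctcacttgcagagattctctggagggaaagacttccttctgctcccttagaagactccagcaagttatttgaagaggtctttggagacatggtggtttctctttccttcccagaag

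The Zfp352 window held 9 copies of the motif, all in the TAATCC orientation, between 227 and 61 bases before the start and 20 or 21 bases apart. It was the 1 window of 32851 with that many, and 7.06% of all windows held at least 1 copy. The printed Sp110 window held 2 copies, both in the GGATTA orientation, a number reached by 118 windows (0.359%). That window lies outside the annotated Sp110 gene, which starts at 85598817 on the minus strand, and inside the annotated Sp140 gene. The window of the other RefSeq start, which covers the annotated start of Sp110, held 1 copy. The Tdpoz4 and Usp17lc windows held 0 copies. The DUX type core was in 0.268% of all windows and in none of the windows of the 4 genes. A match describes the letters in these windows only.

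Depth was 2592925 to 6259870 recovered reads per embryo. In 31 embryos 16687 to 20200 genes had a value above 0. One control, Ctrl_LNA 48, stood apart with 7276 such genes at a depth of 5122089 reads, and the main results are given with and without it. Of 8 markers of the labelled stage 7 were in the table, and their summed normalized count was 6465 to 26180 in Val_LNA and 2620 to 27376 in Ctrl_LNA. The list holds Zfp352, which is itself among the genes followed here, and Usp17lb, Duxf3 and Zscan4 genes. The sum is therefore not separate from the program studied. Of 5 sperm markers 4 had a median of 0, and of 8 cumulus cell markers 6 did. The exceptions were Tnfaip6, with a median of 7.86, and Amhr2, a receptor gene listed as a cumulus marker, with a median of 537. Of 6 markers of later stages 3 had a median of 0 (Cdx2, Krt18 and Sox17), and the 6 summed to at most 404 in any embryo.

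All 10 transcripts were detected in all 16 Val_LNA embryos, and 8 of them in all 16 Ctrl_LNA embryos. Tdpoz3 and Tcstv1 were at 0 in Ctrl_LNA 48 and above 0 in the other 15 controls. Together they took 0.374% ± 0.0923 (SD, n = 16) of the normalized counts in Val_LNA, with a range of 0.240% to 0.568%. In Ctrl_LNA they took 0.287% ± 0.113 (SD, n = 16), with a range of 0.0609% in Ctrl_LNA 48 to 0.517%, or 0.302% ± 0.0992 (SD, n = 15) without that embryo. The ranges of the groups overlapped. In a whole embryo, less RNA per cell and fewer cells that express a gene cannot be told apart.

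On the scale of normalized count per kb of annotated exon, the median level over the 32 embryos was highest for Tcstv3 (2124) and fell through Tdpoz4 (1378) to Zfp352 (994). Tcstv3 lay above Tdpoz4 in 27 of 32 embryos, and Tdpoz4 above Zfp352 in 25. Zfp352 in turn lay above Sp110 (580) in 25 embryos. Below them stood a group of levels with little order, made of Sp110, Tdpoz3 (545), Tmem92 (434), Tcstv1 (423) and Arg2 (418). Sp110 exceeded Tdpoz3 in 15 of 32 embryos and Tcstv1 exceeded Arg2 in 12, so neighbours in that order were not separated beyond their spread. The exception was Tmem92, which exceeded Tcstv1 in 24 of 32 embryos although their medians were close. Usp17lc (265) was below Arg2 in 25 embryos, and Usp17le (36.4) was the lowest, below Usp17lc in 29. The length took in all annotated exons of a gene, which for Sp110 were 6781 bases from 9 transcripts. Parts of Tcstv3, Tdpoz4, Tdpoz3 and Usp17lc also occur in other genes, as given below, and how shared reads were counted is uncertain. The order is thus that of these counts per kb and may not be that of transcript numbers.

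**Figure D1:**
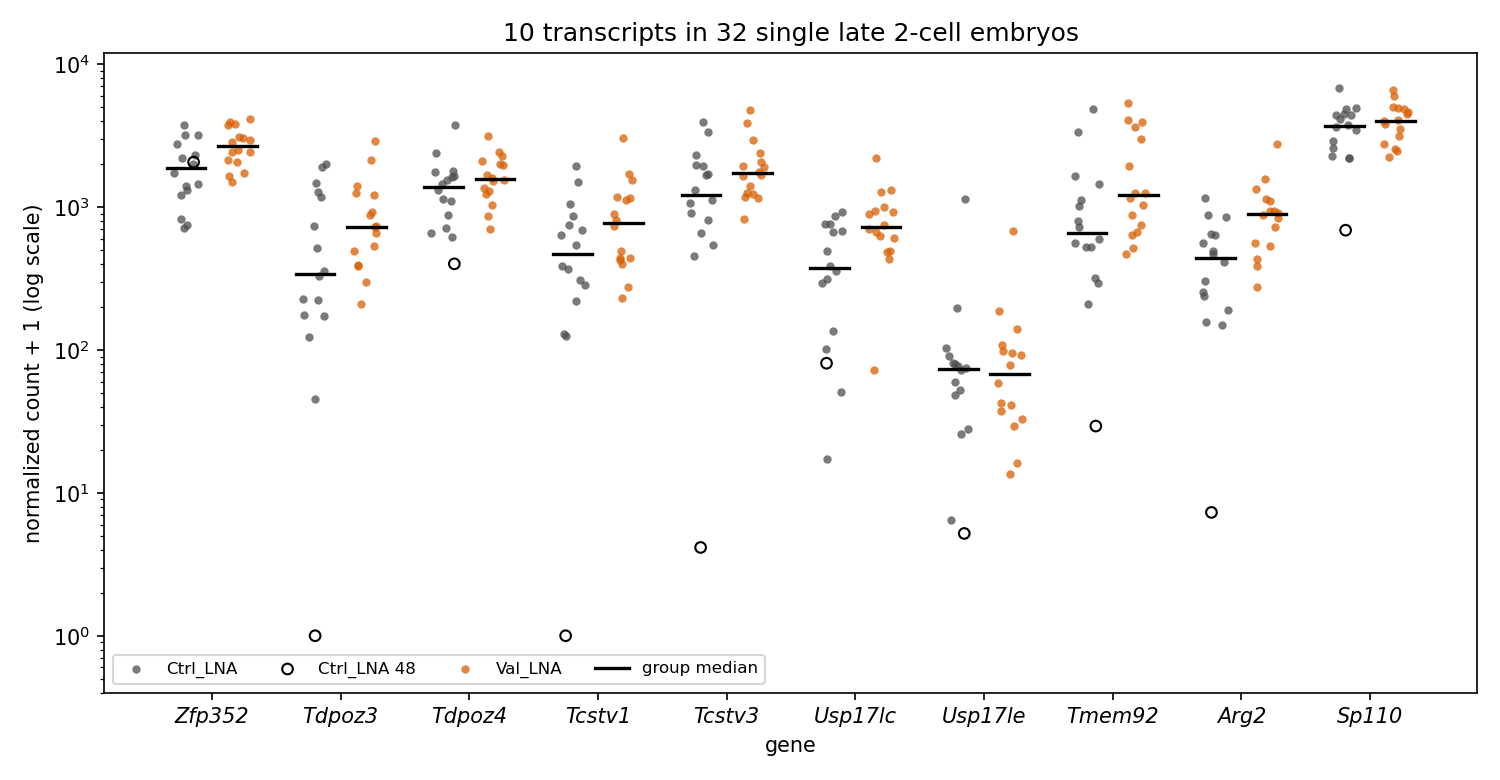
Normalized count plus 1 (log axis) of the 10 genes in each embryo, with Ctrl_LNA in grey, Val_LNA in orange, Ctrl_LNA 48 as an open circle and a bar at each group median. The medians of Val_LNA are above those of Ctrl_LNA for 9 genes and not for Usp17le, and the points of the groups overlap for every gene.

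None of the 10 transcripts passed the test between the groups (limma on log2(normalized count + 1), Benjamini-Hochberg adjusted p under 0.05 over 15559 genes), while 2.19% of all tested genes did. At an unadjusted p under 0.05, 4 of the 10 (Arg2, Zfp352, Usp17lc and Tmem92) were higher in Val_LNA, against 8.88% of all tested genes. All 10 log2 fold changes were above 0, against 64.3% of all genes, and their median was 1.03, against 0.26 for all genes. Without Ctrl_LNA 48, 0 of the 10 passed (4.2% of all genes), 3 were higher at an unadjusted p under 0.05 (8.28% of all genes), and 9 of the 10 were above 0 (54.2% of all genes), with a median of 0.61 against 0.07. With edgeR's quasi-likelihood test and with DESeq2, 0 of the 10 passed, against 1.23% and 3.32% of all genes. At an unadjusted p under 0.05, 3 were higher with each (Arg2, Usp17lc and Zfp352), against 3.77% of all genes with edgeR and 7.83% with DESeq2. The count models gave smaller estimates, with a median over the 10 of 0.43 with edgeR and 0.51 with DESeq2 (0.04 and 0.14 for all genes). Tdpoz3 had 0.43 and 0.50, and Tcstv3 0.34 and 0.43. Over all genes limma called 137 higher and 204 lower in Val_LNA. When each embryo was centred on its own median, the split became 61 higher and 300 lower, the median of all genes moved to −0.19, and 7 of the 10 transcripts were above 0 with a median of 0.58. Centring without Ctrl_LNA 48 gave 186 higher and 433 lower and a median of all genes of −0.0004. In that fit 9 of the 10 were above 0, with a median of 0.54.

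Zfp352 encodes a zinc finger protein and is a standard marker of the 2-cell stage (ENSMUSG00000070902.5, chromosome 4, 90218820 to 90225702, GRCm38). Its normalized count ran from 1508 through a median of 2687 to 4132 in Val_LNA, and from 713 through 1872 to 3734 in Ctrl_LNA. The groups overlapped, but 13 of 16 Val_LNA embryos were above the Ctrl_LNA median. The mean was 2756 ± 841 against 1931 ± 930 (SD, n = 16 each). The log2 fold change was 0.62 ± 0.22 (SE), with a 95% interval of 0.18 to 1.06 and a limma adjusted p of 0.143. It was the member that Ctrl_LNA 48 moved least, with 2067 in that embryo and a log2 fold change of 0.64 without it. It did move with the scaling, to 0.17 when embryos were centred on their medians, and to 0.57 when they were centred without Ctrl_LNA 48. It was also alike in both runs of library numbers (0.63 in the lower and 0.60 in the upper run). The numbers in the labels form a lower and an upper run of 8 embryos in each group, which the labels do not call batches.

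Tdpoz3 and Tdpoz4 encode proteins with a TRAF-like (MATH) domain and a POZ domain and lie in 1 cluster on chromosome 3. The most alike pair of their annotated transcripts was 77.6% identical over the shorter one. Tdpoz3 (ENSMUSG00000058005.3, 93826020 to 93827117) ran from 210 through a median of 730 to 2885 in Val_LNA. In Ctrl_LNA it ran from 0 in Ctrl_LNA 48, with 44.5 the next lowest in Ctrl_LNA 49, through 342 to 2002. Of the Val_LNA embryos 14 of 16 were above the Ctrl_LNA median, while the top of the ranges overlapped. The log2 fold change was 1.35 ± 0.68 (SE), with a 95% interval of −0.02 to 2.72 and a limma adjusted p of 0.346, and without Ctrl_LNA 48 it was 0.80 (−0.12 to 1.72), smaller by over 1.5 times. Tdpoz4 (ENSMUSG00000060256.1, 93796398 to 93797510) was the steadier of the pair. It ran from 704 through 1563 to 3168 in Val_LNA and from 400 through 1388 to 3777 in Ctrl_LNA, with nearly the same ranges. Its log2 fold change was 0.34 ± 0.24 (SE), −0.16 to 0.83, with a limma adjusted p of 0.509. It turned to −0.11 when embryos were centred on their medians, and was 0.16 when they were centred without Ctrl_LNA 48. Of the 50-base words in the annotated Tdpoz3 transcript (all stretches of 50 bases), 66.2% also occur in other genes, all of them in the pseudogene Gm4982, and 41.2% of those of Tdpoz4 occur in other genes, so how reads were shared among the copies is uncertain.

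Tcstv1 and Tcstv3 belong to a small gene family named for its transcripts at the 2-cell stage, and the most alike pair of their annotated transcripts was 94.1% identical over the shorter one. Tcstv1 (ENSMUSG00000096284.2, chromosome 13, 119893388 to 119894785) ran from 232 through a median of 776 to 3034 in Val_LNA. In Ctrl_LNA it ran from 0 in Ctrl_LNA 48, then 124, through 466 to 1931. The ranges overlapped over most of their length, and 10 of 16 Val_LNA embryos were above the Ctrl_LNA median. Its log2 fold change was 1.15 ± 0.64 (SE), −0.14 to 2.44, with a limma adjusted p of 0.392. Leaving out Ctrl_LNA 48 gave 0.59 (−0.17 to 1.35). Tcstv3 (ENSMUSG00000095821.2, chromosome 13, 120316878 to 120318178) was the more abundant per kb. It ran from 831 through 1724 to 4764 in Val_LNA and from 3.15 in Ctrl_LNA 48, then 456, through 1219 to 3918 in the controls. Here 13 of 16 Val_LNA embryos were above the Ctrl_LNA median. Its log2 fold change was 0.97 ± 0.55 (SE), −0.14 to 2.08, with a limma adjusted p of 0.405, and 0.45 (−0.10 to 1.00) without Ctrl_LNA 48. For both genes the estimate was thus smaller by over 1.5 times without that 1 embryo. Of the 50-base words 209 of 1397 in Tcstv1 and 229 of 730 in Tcstv3 occur in other genes, most often in Gm21818.

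Usp17lc and Usp17le encode deubiquitinating enzymes of the Usp17-like family on chromosome 7, and the most alike pair of their annotated transcripts was 90.7% identical. Usp17lc (ENSMUSG00000058976.4, 103415072 to 103419880) ran from 71.1 through a median of 730 to 2203 in Val_LNA and from 16.3 through 373 to 928 in Ctrl_LNA. All but 1 of the Val_LNA embryos (15 of 16) were above the Ctrl_LNA median, the exception being Val_LNA 7. Its mean was 837 ± 480 against 431 ± 311 (SD, n = 16 each). The log2 fold change was 1.32 ± 0.48 (SE), 0.35 to 2.29, with a limma adjusted p of 0.164, and it was 1.20 (0.25 to 2.15) without Ctrl_LNA 48, whose value of 79.8 was not the lowest. Within the lower run the estimate was 0.50 and within the upper run 2.14, and the test of that difference (limma interaction) gave an unadjusted p of 0.086 and an adjusted p of 0.817. Usp17le (ENSMUSG00000043073.10, 104768049 to 104777470) differed from its relative. It ran from 12.6 through 67.3 to 684 in Val_LNA and from 4.20 through 72.4 to 1133 in Ctrl_LNA, so that the medians were close and in the other order. Its log2 fold change of 0.15 ± 0.56 (SE), −0.99 to 1.28, had a limma adjusted p of 0.918 and became −0.09 without Ctrl_LNA 48. Of the 50-base words of Usp17lc 44.7% occur in other genes, mostly Usp17ld, and of Usp17le 29.8%.

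The highest Usp17le values came from 1 embryo of each group, Val_LNA 8 (684) and Ctrl_LNA 32 (1133). The same 2 embryos had the highest Duxf3 (a Dux gene) of their groups, with 462 and 2195 against group medians of 18.7 and 3.77. They also had the highest Zscan4c, with 4011 and 6722 against medians of 472 and 332. Of the 6 Zscan4 genes all peaked in Ctrl_LNA 32 and 5 in Val_LNA 8, while Zscan4d peaked in Val_LNA 14 (5123). Of the other Usp17-like genes, Usp17la peaked in the same 2 embryos, Usp17lb in Val_LNA 8 and Ctrl_LNA 36, and Usp17ld in Val_LNA 14 and Ctrl_LNA 44. These shared maxima were noticed after the values were seen.

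Tmem92 encodes a transmembrane protein (ENSMUSG00000075610.9, chromosome 11, 94777217 to 94782703). It ran from 467 through a median of 1208 to 5385 in Val_LNA, and from 28.4 in Ctrl_LNA 48, then 207, through 660 to 4831 in Ctrl_LNA. The maxima were again Val_LNA 8 and Ctrl_LNA 32, and 13 of 16 Val_LNA embryos were above the Ctrl_LNA median. The log2 fold change was 1.09 ± 0.48 (SE), 0.10 to 2.07, with a limma adjusted p of 0.288, and without Ctrl_LNA 48 it was 0.79, with an interval that included 0 (−0.04 to 1.61). Only 1.93% of its 50-base words occur in other genes, so shared reads touch it little.

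Arg2 encodes the mitochondrial arginase, which splits arginine into ornithine and urea (ENSMUSG00000021125.6, chromosome 12, 79130777 to 79156301). It had the largest log2 fold change of the 10 over the 32 embryos (without Ctrl_LNA 48 that of Usp17lc was larger) and shares 0% of its 50-base words with other genes. It ran from 276 through a median of 897 to 2787 in Val_LNA, and from 6.30 in Ctrl_LNA 48, then 149, through 441 to 1166 in Ctrl_LNA. The groups overlapped, with 13 of 16 Val_LNA embryos above the Ctrl_LNA median. The mean was 961 ± 601 against 464 ± 316 (SD, n = 16 each). The log2 fold change was 1.37 ± 0.45 (SE), 0.45 to 2.29, with a limma adjusted p of 0.118. Without Ctrl_LNA 48 it was 1.00 (0.39 to 1.62) with a limma adjusted p of 0.0518. It passed the test in 3 alternative settings. They were DESeq2 without Ctrl_LNA 48 (adjusted p of 0.0305), limma with array weights (0.0348) and limma with the number of genes above 0 as a covariate (0.013). Of 15559 genes these settings called 341 higher and 379 lower, 353 and 564, and 373 and 363, against 137 and 204 in the main fit. The DESeq2 fit without Ctrl_LNA 48 was added after seeing the data, and both limma fits kept that embryo. Arg2 was higher within both runs, by 0.84 in the lower and 1.89 in the upper (1.22 without Ctrl_LNA 48).

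Sp110 encodes a nuclear body protein of the Sp100 family (ENSMUSG00000070034.13, chromosome 1, 85576899 to 85598817). It was, with Zfp352, among the least variable of the 10 within Val_LNA, from 2228 through a median of 4041 to 6631. In Ctrl_LNA it ran from 689 in Ctrl_LNA 48, then 2199, through 3727 to 6844, almost the same range. Its log2 fold change was 0.25 ± 0.22 (SE), −0.18 to 0.69, with a limma adjusted p of 0.580, and 0.10 without Ctrl_LNA 48. Of its 50-base words 2487 of 6914 occur in other genes, 75 in all and most often Gm16026.

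**Figure D2:**
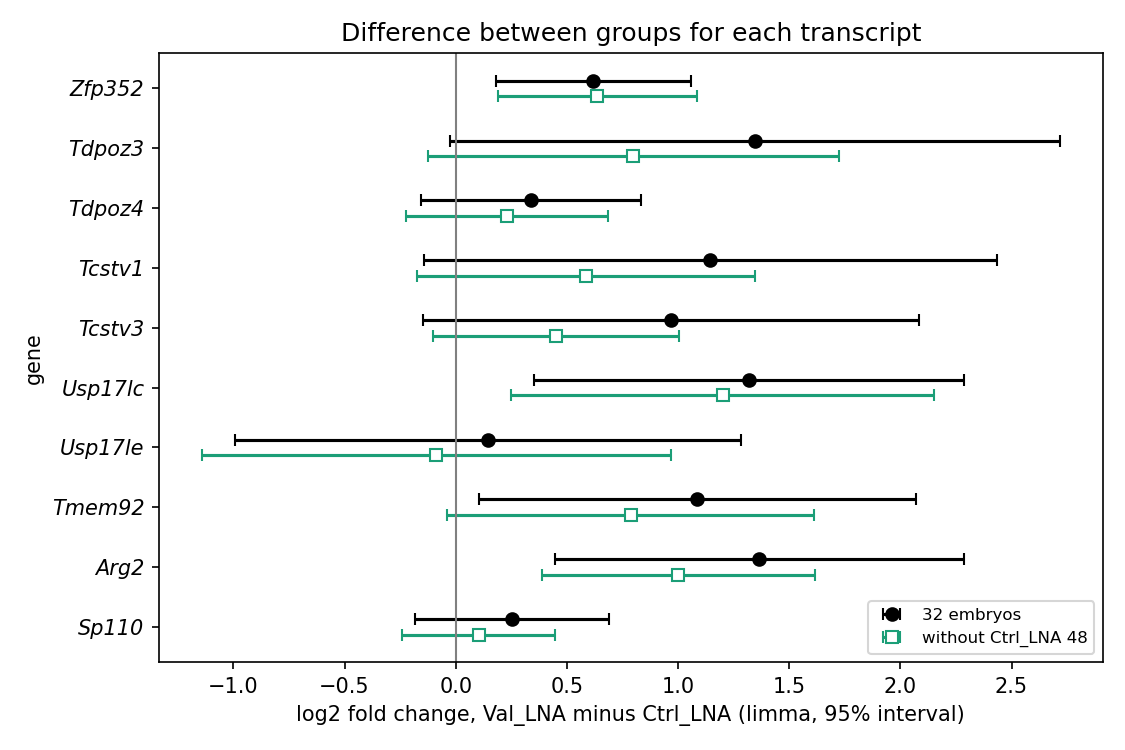
Log2 fold change of each gene, Val_LNA minus Ctrl_LNA, with its 95% interval from limma, over 32 embryos (filled circles) and without Ctrl_LNA 48 (open squares). The intervals of Zfp352, Usp17lc and Arg2 lie above 0 in both, that of Tmem92 only with all 32 embryos, and those of the other 6 genes include 0.

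The median estimate of the 10 was larger in the upper than in the lower runs of library numbers, by less without Ctrl_LNA 48. In the lower runs the 10 estimates lay between −0.05 (Usp17le) and 0.84 (Arg2 and Tmem92), with a median of 0.50, against 0.03 for all genes. In the upper runs, which hold Ctrl_LNA 48, they lay between 0.14 (Sp110) and 2.14 (Usp17lc), with a median of 1.39 against 0.44 for all genes. Without that embryo these medians were 0.72 and 0.07, so the median of all genes also was higher in the upper runs. The limma interaction of group and run called 0 genes of 15559, 808 of them under 0.05 unadjusted, and none of the 10. The mean of the centred log2 values of the 10 genes was 0.64 ± 0.66 in the lower and 0.22 ± 0.31 in the upper run of Val_LNA (SD, n = 8 each). In Ctrl_LNA it was 0.19 ± 0.89 (SD, n = 8) in the lower run and −0.52 ± 0.78 (SD, n = 7) in the upper run without Ctrl_LNA 48. What a run stands for was not tested.

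The transcripts varied together from embryo to embryo. Over the 32 embryos, in each of which the genes of a pair share 1 library and its depth, the 45 pairs had Spearman correlations of −0.24 to 0.93 with a median of 0.53, and 41 were above 0, against a median of 0.04 over pairs of all tested genes. The highest pairs were Tcstv1 with Tmem92 (0.93) and Tcstv1 with Tdpoz3 (0.88), on different chromosomes. A set of 6 genes (Zfp352, Tdpoz3, Tcstv1, Tcstv3, Usp17lc and Tmem92), put together after the values were seen, had 15 pairs between 0.63 and 0.93 with a median of 0.74, and 0.75 without Ctrl_LNA 48. Usp17le (median 0.52 with the other 9), Tdpoz4 (0.48) and Arg2 (0.43) followed less closely. Sp110 did not follow, with a median of 0.01 and a highest value of 0.53, which was with Tdpoz4. That pair had 0.79 within Val_LNA and 0.15 within Ctrl_LNA without embryo 48. The Arg2 median was 0.16 within Val_LNA and 0.54 within Ctrl_LNA without embryo 48. These differences were not tested. Zfp352 and Usp17lc were correlated at 0.71. Their promoter windows printed above held 9 and 0 copies of the OTX and OBOX type motif, and a part of the motif in the correlation was not tested. Within Val_LNA the median over the 45 pairs was 0.29 (n = 16), and within Ctrl_LNA without embryo 48 it was 0.66 (n = 15), a difference that was not tested.

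**Figure D3:**
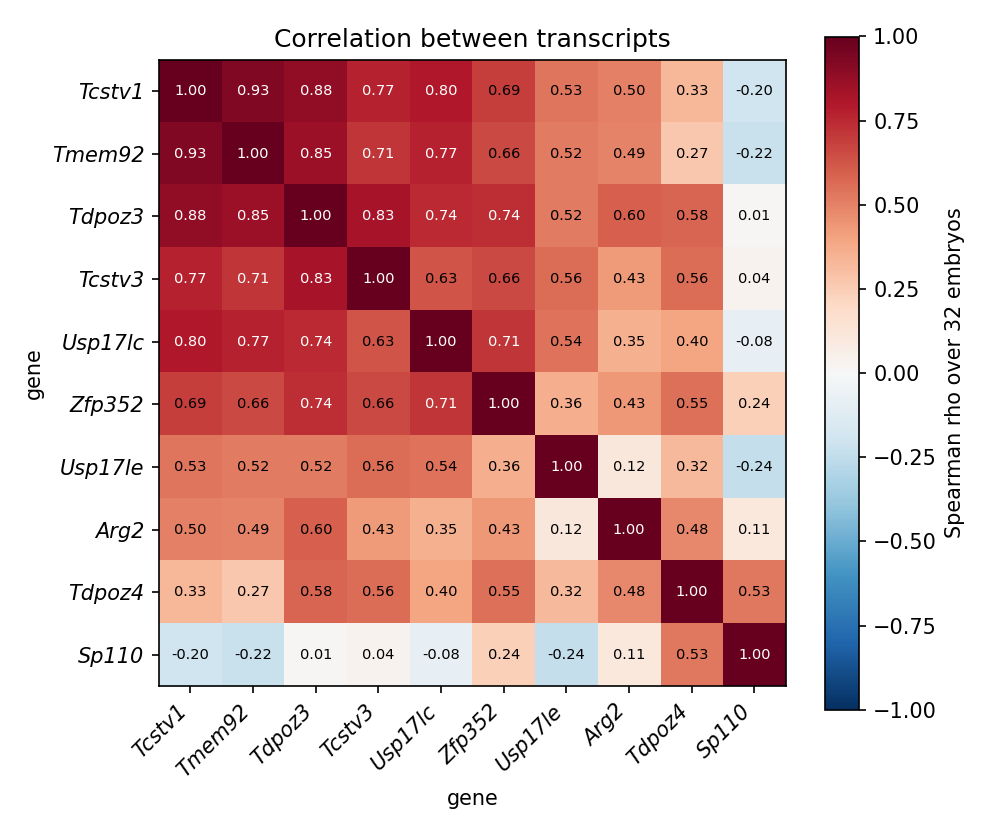
Spearman correlation between each pair of the 10 genes over the 32 embryos, with blue for negative and red for positive values. Tcstv1, Tmem92, Tdpoz3, Tcstv3, Usp17lc and Zfp352 form a block of 0.63 to 0.93, and the row of Sp110 lies between −0.24 (Usp17le) and 0.24 (Zfp352) except with Tdpoz4 (0.53).

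The embryos formed a range and not 2 separate groups. The mean of the 10 centred log2 values was 0.43 ± 0.55 in Val_LNA (SD, n = 16) with a range of −0.46 to 1.39. In Ctrl_LNA it was −0.43 ± 1.44 (SD, n = 16) with a range of −4.75 to 1.01, and −0.14 ± 0.89 (SD, n = 15) without Ctrl_LNA 48. The lowest embryos after Ctrl_LNA 48 were Ctrl_LNA 49, 38 and 46, and the highest were Val_LNA 3, 2 and 8, followed by Ctrl_LNA 32. Measures of the libraries moved with this mean. Its Spearman correlation over the 32 embryos was −0.38 with total reads, 0.49 with the number of genes above 0 and 0.14 with the mitochondrial share of reads, and −0.35, 0.44 and 0.06 without Ctrl_LNA 48. With total reads (log2) as a covariate the median log2 fold change of the 10 was 0.78 (0.21 for all genes). In that fit 3 of the 10 were higher at an unadjusted limma p under 0.05, against 961 of 15559 genes. With genes above 0 as a covariate the median was 0.77 (0.15 for all genes), and 7 of the 10 were higher, against 1861 genes. Both fits kept Ctrl_LNA 48 and were not run without it. Its 7276 genes above 0 lie far from the 16687 to 20200 of the other 31 embryos, so that embryo can weigh heavily in the second fit. The part of depth and of gene detection in the differences was not tested beyond these fits.

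**Figure D4:**
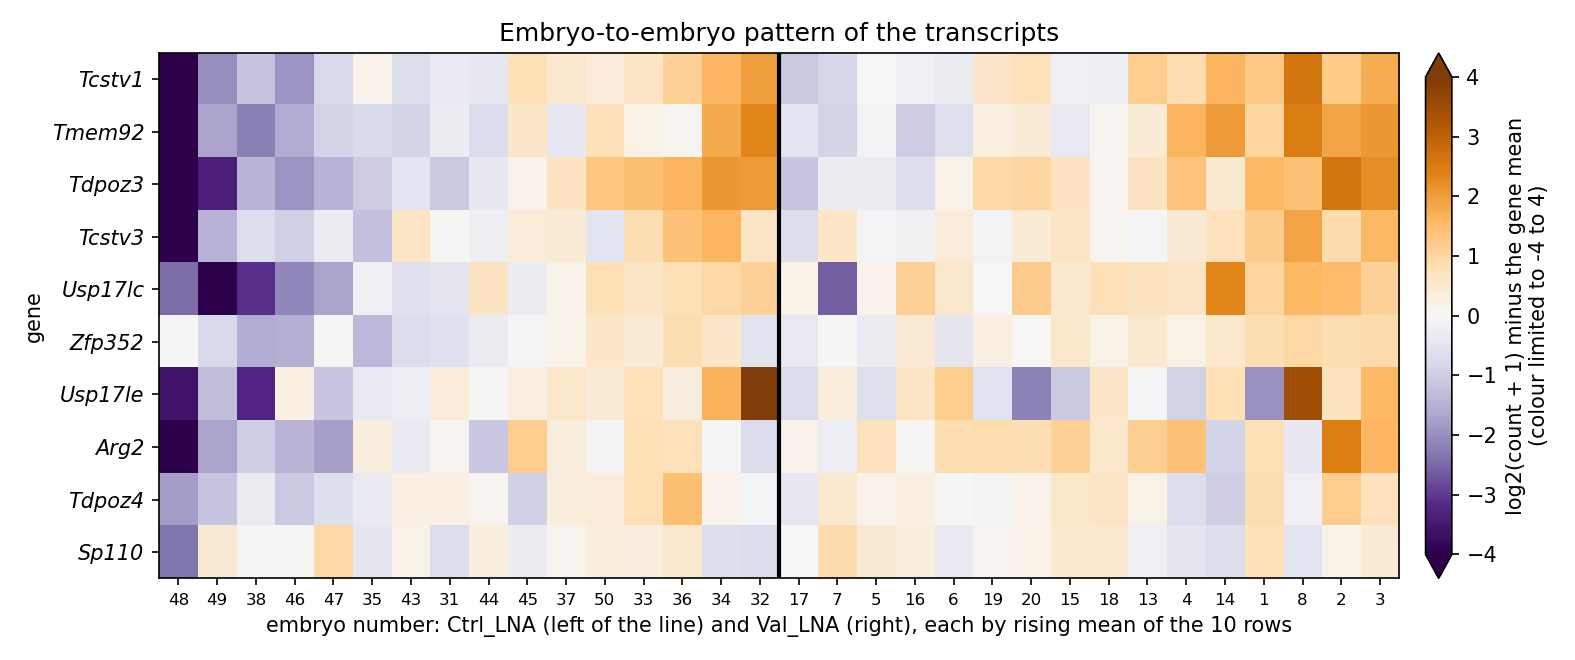
Centred log2(normalized count + 1) of the 10 genes (rows) in each embryo (columns), Ctrl_LNA left of the line and Val_LNA right, each ordered by the mean of the rows. Purple marks values below the gene mean and orange to brown those above it. Ctrl_LNA 48 at the far left is low in most rows but not in Zfp352, and Usp17le is highest in Ctrl_LNA 32 and Val_LNA 8.

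The level of some stored maternal RNAs moved with the 10 transcripts. The 9 oocyte markers summed to 4943 to 29843 in Val_LNA (median 12482) and to 1538 to 20604 in Ctrl_LNA (median 8415). Their sum had a Spearman correlation of 0.76 with the mean of the 10 genes over the 32 embryos. Single markers differed in this, from 0.82 for Oosp1 and 0.60 for Bmp15 to 0.21 for Mos, 0.08 for Zp1 and −0.05 for Zp3. None of the 8 that were tested passed, and the smallest p was that of Oosp1, an oocyte-secreted protein gene (4480 ± 2133 against 2652 ± 1365, SD, n = 16 each, log2 fold change 1.11, limma adjusted p of 0.292). Without Ctrl_LNA 48 its log2 fold change was 0.63, with a limma adjusted p of 0.141. The sum of the 8 cumulus markers had a correlation of −0.30, and the cumulus gene with the smallest p, Tnfaip6, averaged 20.0 against 5.55 (limma adjusted p of 0.107). Prm2, the tested sperm marker, averaged 8.59 against 6.68 (limma adjusted p of 0.918), and Krt18, of the later markers, 37.8 against 19.4 (0.455). The part of these RNAs in the differences was not tested.

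Relatives of the 10 genes were read from the same fit. Of 21 listed relatives 11 were in the table and all 11 were tested, 0 passed in either direction, and their median log2 fold change was 0.47 (0.29 without Ctrl_LNA 48), against 0.26 and 0.07 for all genes. The relative with the smallest p was Sp140, the neighbour of Sp110 on chromosome 1, which went the other way. Val_LNA averaged 198 ± 96.0 and Ctrl_LNA 349 ± 149 (SD, n = 16 each), and 1 of 16 Val_LNA embryos was above the Ctrl_LNA median. The log2 fold change was −0.84 ± 0.28 (SE) with a limma adjusted p of 0.116, and −0.83 (0.0629) without Ctrl_LNA 48.

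Of 15 listed Zscan4 and Dux genes 10 were tested, 0 passed, and the median log2 fold change was 0.82 (0.59 without Ctrl_LNA 48). The 6 Zscan4 genes, which encode zinc finger proteins with a SCAN domain, had log2 fold changes of 0.73 to 0.95 and correlations of 0.73 to 0.89 with the mean of the 10 genes. Duxf3 had the smallest p of this list, with a log2 fold change of 1.74 ± 0.87 (SE) and a limma adjusted p of 0.345. On the linear scale the order was the reverse, 53.5 ± 113 for Val_LNA against 149 ± 547 for Ctrl_LNA (SD, n = 16 each), and the Ctrl_LNA mean includes the 2195 of Ctrl_LNA 32.

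Known regulators of the 2-cell program came from 2 further lists. Of 21 activators 0 passed and the median was 0.11 (−0.09 without Ctrl_LNA 48). The smallest p was that of Yap1, a transcriptional cofactor of the Hippo pathway, at 1653 ± 490 against 1169 ± 241 (SD, n = 16 each), with a log2 fold change of 0.47 ± 0.15 (SE) and a limma adjusted p of 0.115. Of 35 repressors 33 were tested, and 1 rose and 0 fell, a share near the 2.19% of all tested genes. The median was −0.06, and 0.03 without Ctrl_LNA 48. The one that rose was Rif1, which acts in replication timing and heterochromatin, from 1047 ± 754 in Ctrl_LNA to 1875 ± 324 with the antisense LNA (SD, n = 16 each). Its log2 fold change was 1.17 ± 0.26 (SE) with a limma adjusted p of 0.0084, and all 16 Val_LNA embryos were above the Ctrl_LNA median. Its correlation with the mean of the 10 genes was −0.15. Without Ctrl_LNA 48 Rif1 still passed, and 3 repressors fell, against 4.2% of all genes called in that fit. They were Zfp42 (log2 fold change −3.62, limma adjusted p of 0.0047), Atf7ip (−0.90, 0.0434) and Rbpj (−1.97, 0.00027).

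Outside the 10, 8 genes had the pattern over the 32 embryos most like the mean of the 10, by Spearman correlation. The first 5 lie in the same stretch of chromosome 4, between 73607881 and 73687558. They were Gm11236 (0.96), Gm11238 (0.96), Gm11237 (0.95), Gm428 (0.95) and Gm11239 (0.94). The annotated Gm11238 spans the positions of Gm11236 and Gm11237. How reads were shared among these 5 genes was not analysed, so they may not be separate matches. Gm4982 (0.94) and Gm5286 (0.92) lie on chromosome 3, and Gm9046 (0.92) on chromosome 10. Gm4982 is the pseudogene that shares sequence with Tdpoz3, so its likeness can hold shared reads. Without Ctrl_LNA 48 the 8 correlations were between 0.92 and 0.96. Gm11236 averaged 650 ± 574 against 330 ± 414 (SD, n = 16 each), with a log2 fold change of 1.29 and a limma adjusted p of 0.160. None of the 8 passed the test between the groups, with limma adjusted p from 0.118 to 0.376.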

How the data were processed

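Single-embryo mRNA libraries were made by template switching, 20 PCR cycles and tagmentation, per the labels' protocols. The protocol names no molecular identifiers and does not mark strand: PCR copies add to the reads, and antisense reads cannot be separated. Bowtie2, STAR, SAMtools, DESeq2 and build mm10 are named, per the submitters' processing notes. Their versions and roles, and the gene annotation, were not given in the sources used here. Each deposited signal is a gene count divided by a size factor, made by the authors, per the file headers. Multiplying by the deposited size factors, the other deposited values, gave whole reads for 1095136 of 1095136 values (100%), with a largest distance of 0.00855.

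The fit was limma 3.58.1 in R 4.3.3 (trend = TRUE, robust = TRUE), run on log2 of the normalized count plus 1. It covered 15559 genes with at least 10 in at least 8 of 32 embryos, and an adjusted p (Benjamini-Hochberg) under 0.05 was a call. The log2 scale understates the change of low genes. Alternatives included edgeR 4.0.16 and DESeq2 1.42.0 on recovered reads. The code was tested on simulated data. Over 240 pairs within groups, the lowest chi-square per gene was 25.3, so no library was counted as a copy. Identifiers matched GENCODE M21 (GRCm38) for 34179 of 34223 genes, and coordinates are from it, counted from 1. The members, lists and tests were chosen with earlier results of these data known. All members were named. Of each other list up to 3 called genes were named in order of p, or the lowest p in a list without calls, and so were the 8 genes most correlated with the mean of the members. Correlations are descriptions (Python 3.11.15, scipy 1.17.1, pandas 2.3.3).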

Additional observations from a re-analysis of the deposited data

How the results depend on the processing

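No paired analysis was possible because the groups share no replicate numbers. Over 50 alternatives and 10 genes, 481 of 500 estimates kept their direction and were not called, 3 were called (Arg2, making 1 called member, with DESeq2 without Ctrl_LNA 48, with genes above 0 as a covariate and with array weights) and 16 reversed. The alternatives without Ctrl_LNA 48 other than limma's leave-one-out were added after seeing the data. Usp17le reversed to −0.34 with edgeR, −0.45 with edgeR without Ctrl_LNA 48, −0.12 in the Wilcoxon test, −0.23 with array weights, −0.30 with embryos centred on their medians, −0.16 with centring without Ctrl_LNA 48, −0.023 with genes above 0 as a covariate, −0.025 with total reads (log2) as a covariate, −0.053 in the lower runs and −0.069 in the upper runs without Ctrl_LNA 48. Leaving out 1 embryo at a time gave −0.087 to 0.43 for Usp17le, negative without Val_LNA 8, Ctrl_LNA 38 or Ctrl_LNA 48. Sp110 reversed to −0.20 with centring and −0.19 in the upper runs without Ctrl_LNA 48, and Tdpoz4 to −0.11 with centring. With centring without Ctrl_LNA 48, Sp110 was at 0.035 and Tdpoz4 at 0.16. The number of genes called (341) became 192 with edgeR, 517 with DESeq2, 720 with DESeq2 without Ctrl_LNA 48, 622 in the Wilcoxon test, 736 with genes above 0 as a covariate, 917 with array weights, 180 in the lower runs, 35 in the upper runs, 131 in the upper runs without Ctrl_LNA 48 and 619 with centring without Ctrl_LNA 48. Leaving out 1 embryo gave 281 to 654 genes, 0 members, 0 to 1 activators (1 without Val_LNA 7) and 1 to 4 repressors, and a pseudocount of 10 gave 3 repressors. The cause was not tested. DESeq2 without Ctrl_LNA 48 gave no adjusted p for 1810 genes. Usp17le had the lowest level per kb of the 10 genes (36.4), and a part of depth in its reversals was not tested.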

Other observations

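Some listed activators varied with the 10 transcripts from embryo to embryo although none differed between the groups by the test. These genes were picked after their values were seen, and the correlations are Spearman values over the 32 embryos with the mean of the 10 genes. Klf17, a Kruppel-like factor, had 0.77, and Obox5, an oocyte-specific homeobox gene, had 0.71. Obox6, a relative of Obox5, went the other way at −0.68, with a mean of 1494 ± 826 against 2540 ± 1246 (Val_LNA against Ctrl_LNA, SD, n = 16 each). Obox5 averaged 5233 ± 3760 against 3449 ± 2669. Dppa4, a chromatin-associated activator of Dux, had −0.77, and Tead4, a partner of YAP1, had −0.69. Their limma adjusted p between the groups were 0.468 for Klf17, 0.375 for Obox5, 0.229 for Obox6, 0.327 for Dppa4 and 0.593 for Tead4.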
